A study of Mus musculus with 14 samples.

Results

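Macrophages drawn into the mouse peritoneum by thioglycollate were compared with and without the IL-4 complex, to ask which genes the cytokine moves in recruited cells. The comparison was chosen by sample title and takes 7 of the 14 arrays of the series: 3 from C57BL/6 mice injected in the peritoneum with 2 ml of 4% thioglycollate medium (Thio), and 4 from C57BL/6 mice given the same medium together with the complex (Thio+IL-4c). The complex had been made from 25 µg of 11B11, an antibody to IL-4, and 5 µg of the cytokine. The times of injection and harvest and the ages of the mice are not given in the sources used here. In all 4 groups the cells had been sorted on CD11b and F4/80 before RNA extraction. The other 7 arrays held resident peritoneal macrophages from mice given PBS (3) or the complex alone (4). Their gene levels are given only where the response of elicited cells is set beside that of resident cells. They also entered the choice of probes and the fit, so they share in the estimate of spread behind every p-value. Mice had been kept at 2 sites, per the labels, and no label ties an array to a site or to an animal, so each p-value speaks only of the spread among these arrays, which may be technical.

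Thioglycollate medium is a sterile irritant: in the days after its injection, blood monocytes enter the cavity and become macrophages. IL-4 binds a receptor that contains the IL-4 receptor alpha chain, and the JAK kinases of that receptor phosphorylate STAT6, which enters the nucleus and switches on the genes of alternative activation, among them Arg1, Retnla and Chil3. Bound to an antibody, IL-4 lasts longer in the animal, and in the peritoneal cavity it is also known to make macrophages divide.

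Each array gave 1 level per gene: the log2 processed signal, less its 75th percentile on that array, so a level of 0 is that percentile and a difference of 1 is 2-fold. Levels of different genes come from different probes and are not set against each other. The 75th percentile itself was 2294 to 3578 signal units on the Thio arrays and 2044 to 2549 on the Thio+IL-4c arrays, and 86.7% to 95.7% of probes were well above background by the scanner software's mark. Thio 1 lay on another slide than the other 6 arrays and stood apart: across genes its r was 0.848 with Thio 2 and 0.865 with Thio 3, while those correlated with each other at 0.984 and the Thio+IL-4c arrays with each other at 0.973 to 0.987. With the PBS arrays, on its own slide, it correlated at 0.917 to 0.931. Thio 1 was over 2-fold from the mean of Thio 2 and Thio 3 for 8770 genes, against 1269 between Thio 2 and Thio 3. With slide as a block in the fit, the comparison rests on the 6 arrays of slide 2, that is, on the values without Thio 1, and these are given where they change the call of a named gene, or move the number of risers or fallers in a gene group by 2 or more.

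IL-4c changed a large part of the measured genes. Of 20343 genes, 8007 passed the threshold (39.4%; limma, Benjamini-Hochberg adjusted p under 0.05), of which 3303 rose (16.2%) and 4704 fell (23.1%). Changes of at least 2-fold were called for 3980 genes (19.6%), of which 1603 rose (7.88%) and 2377 fell (11.7%), and at least 4-fold 504 rose (2.48%) and 523 fell (2.57%). When slide was a block in the fit, 8558 genes passed (42.1%), 4222 upwards (20.8%) and 4336 downwards (21.3%). There were 7048 genes called in both fits in 1 direction and 0 called in opposite directions. For 9066 genes (44.6%) the 3 Thio and 4 Thio+IL-4c arrays did not overlap. The median difference of all genes was 0.03. Counts of gene groups below are read against these shares. Array values are listed in the order Thio 1 to 3 and then Thio+IL-4c 1 to 4. In sorted bulk RNA, fewer cells of a kind and less RNA per cell cannot be told apart.

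The genes by which alternative activation is usually recognised rose. Arg1, the arginase that turns arginine into ornithine, was at 3.71, 3.28 and 3.98 on the Thio arrays and at 7.31, 7.17, 7.45 and 7.33 on the Thio+IL-4c arrays. The groups did not overlap, and the difference of 3.65 (SE 0.20, adjusted p = 9.28e-08) is 12.6-fold. Retnla, which encodes the secreted protein RELMα, stood at 3.54, 3.63 and 3.48 without the complex. With it the 4 arrays read 7.67, 7.38, 7.68 and 7.58, higher by 4.03 (SE 0.10, adjusted p = 6.17e-10). Chil3 (Ym1) and Chil4 (Ym2) are secreted chitinase-like proteins. Chil3 stood at 4.14, 4.08 and 4.44 and reached 7.49, 7.18, 7.54 and 7.33, a rise of 3.17 (SE 0.17). Chil4 started at -1.80, -1.20 and -1.05, and rose by 6.85 (SE 0.21) to 5.76, 5.44, 5.43 and 5.37. The Chil3 and Chil4 sequences are close, so their probes may share signal. Mrc1, the mannose receptor, rose by 1.54 (SE 0.16, adjusted p = 1.5e-05), from 4.52, 4.30 and 4.22 to 5.87, 5.95, 5.89 and 5.81. Mgl2, a galactose-binding lectin of alternatively activated cells, rose by 3.32 (SE 0.14).

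Of the 34 measured members of a list of alternative activation genes, 25 rose and 4 fell, with a median difference of 2.61; adding slide as a block left the counts at 25 and 4. The members that fell were Stab1, a scavenger receptor (-2.57), Atp6v0d2, a subunit of the vacuolar proton pump (-1.72, and -2.99 on its other probe), Vwf, the clotting factor (-1.39), and Il1rn, the IL-1 receptor antagonist (-1.32).

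**Figure D1:**
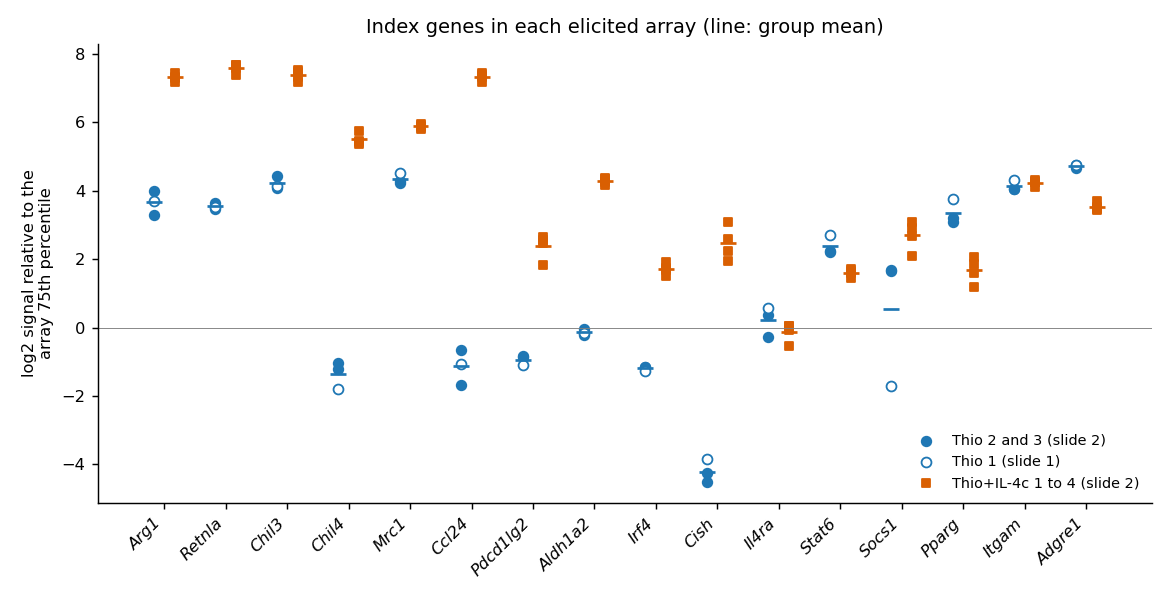
Level of 16 genes on each elicited array, as log2 signal relative to the array's 75th percentile; circles are Thio arrays (open: Thio 1, on another slide), squares Thio+IL-4c arrays and lines group means. Arg1, Retnla, Chil3 and Chil4 do not overlap between groups, Itgam and Il4ra do, and for Socs1 the open circle at -1.72 lies far below the other Thio arrays.

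The receptor chain of the pathway did not pass as changed. Il4ra, the IL-4 receptor alpha chain, was at 0.56, -0.27 and 0.36 and -0.53, 0.05, 0.05 and -0.06; these ranges overlap, and the difference of -0.34 (SE 0.20, adjusted p = 0.188) did not pass, except without Thio 2, where it was -0.59 (adjusted p = 0.0186). The brightest probe of Stat6 differed by -0.78 (SE 0.13, adjusted p = 0.000426), but its other probes differed by -0.37 and 0.17, so no direction is given for the gene. Pparg, a nuclear receptor often named beside STAT6 in alternative activation, fell from 3.76, 3.20 and 3.07 to 1.61, 2.07, 1.85 and 1.18, a difference of -1.67 (SE 0.25, adjusted p = 0.000209). Cish and Socs2, feedback inhibitors of cytokine receptors, had the 2 largest called changes of the pathway's list, with and without the slide block. Cish, an SH2 protein that dampens STAT signalling, went from -3.85, -4.52 and -4.26 to 2.25, 3.10, 2.58 and 1.96, a rise of 6.68 (SE 0.37, adjusted p = 9.13e-08). Socs2, of the same family, rose by 3.44 (SE 0.24), and by 3.80 and 4.38 on its other probes. Socs1 was at -1.72, 1.65 and 1.70 without and 2.67, 3.09, 2.92 and 2.09 with the complex. Its difference of 2.15 (adjusted p = 0.0305) rests on the low value of Thio 1: with slide as a block it was 1.02 (adjusted p = 0.0572). It also did not pass without Thio+IL-4c 1, 2 or 3 (2.02 to 2.16). Of 24 genes of IL-4 receptor signalling and its feedback, 8 rose and 4 fell, and the median difference was 0.02, which lay below 0 in the authors' deposited table and without Thio 3 or Thio+IL-4c 3. Counted among the falls are Stat6 and Irs1, each by its brightest probe. Irs1 differed by -1.39 on that probe and by 1.70 on its other probe.

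Promoters are shown for rising genes that hold a STAT6-type site, since STAT6 is the factor that IL-4 activates. STAT proteins bind inverted TTC and GAA repeats, and STAT6 is known for a wider gap than the other STATs. TTC and GAA with any 4 bases between them (the wide form) were therefore searched, with TTCNNNGAA (the narrow form) beside it, in the RefSeq windows of GRCm38.p6 that run from 250 bases before to 50 bases after each gene's start. Each pattern reads the same on both strands. Of 29 rising genes among the largest changes, those rising from background and the index genes (a short list of macrophage activation and identity genes), 25 had a window and 3 held the wide form: Vdr (minus strand, chr15:97908297-97908546), Retnla (plus strand, chr16:48842359-48842608) and Pdcd1lg2 (plus strand, chr19:29410669-29410918). The 250 bases before each start are given 5′ to 3′, with the site in capitals.
Vdr: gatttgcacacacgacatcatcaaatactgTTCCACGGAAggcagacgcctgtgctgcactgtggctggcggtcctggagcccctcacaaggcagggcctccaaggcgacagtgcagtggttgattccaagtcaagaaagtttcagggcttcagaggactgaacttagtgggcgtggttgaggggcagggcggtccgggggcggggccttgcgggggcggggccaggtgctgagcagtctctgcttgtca
Retnla: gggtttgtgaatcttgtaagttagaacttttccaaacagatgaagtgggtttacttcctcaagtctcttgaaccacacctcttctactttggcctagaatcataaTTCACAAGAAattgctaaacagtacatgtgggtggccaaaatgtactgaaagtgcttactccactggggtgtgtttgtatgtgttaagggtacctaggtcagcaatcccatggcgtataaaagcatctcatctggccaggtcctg
Pdcd1lg2: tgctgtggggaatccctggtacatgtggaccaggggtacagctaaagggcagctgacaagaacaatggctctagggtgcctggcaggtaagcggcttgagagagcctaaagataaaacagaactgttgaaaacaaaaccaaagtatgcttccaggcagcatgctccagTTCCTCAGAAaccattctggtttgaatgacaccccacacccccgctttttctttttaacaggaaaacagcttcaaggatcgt
The narrow form was held by 3 of the 25, Chil4, Cish and Chil3. Of these Cish is shown, with a pair of narrow sites just after its start and no wide site (plus strand, chr9:107296409-107296688, 280 bases, sites in capitals), and was added after its values were seen.
Cish: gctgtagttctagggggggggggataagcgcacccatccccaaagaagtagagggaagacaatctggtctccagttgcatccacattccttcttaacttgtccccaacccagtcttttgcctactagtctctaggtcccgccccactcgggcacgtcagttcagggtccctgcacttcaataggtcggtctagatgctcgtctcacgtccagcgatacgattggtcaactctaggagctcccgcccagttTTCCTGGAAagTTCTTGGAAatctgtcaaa
Most windows held at most 1 site of that spacing: 0.503% of genes with a window held 2 and 0.037% held 3. Among 400 genes that rose at least 4-fold and had a window, 9.25% held the wide form (95% exact interval 6.6% to 12.5%). The share was 6.72% (4.47% to 9.62%) of 402 genes that fell at least 4-fold and 7.23% (6.73% to 7.76%) of 9763 genes not called, and these intervals overlap. For the narrow form the shares were 9.5%, 8.46% and 9.45%. Of all 27025 genes with a window, measured or not, 8.01% held the wide and 9.55% the narrow form. Among the 16133 genes tested that had a window, the shares were 7.22% and 9.07%. A match describes these letters and is not a measured binding site.

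Among named genes well above background on all 7 arrays, a chemokine gene, Ccl24, had the largest rise. With slide as a block Ddx4 rose more, by 8.76 against 8.51 for Ccl24. Ccl24 (eotaxin-2), which attracts eosinophils, was at -1.05, -1.69 and -0.67 on the Thio arrays and at 7.19, 7.34, 7.43 and 7.38 with IL-4c. The difference of 8.47 (SE 0.21, adjusted p = 4.81e-10) is 355-fold. Ccl17 and Ccl22 both act on CCR4, a chemokine receptor of T cells. Ccl17 rose by 5.04 (SE 0.39), from -4.70, -3.49 and -3.39 to 0.23, 1.68, 1.12 and 1.70. Ccl22 was not well above background on any Thio array and was on all 4 Thio+IL-4c arrays, at least 12-fold higher. Of 5 measured type 2 chemokines 4 rose and 0 fell.

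The ligands of the monocyte receptor CCR2 also rose. Ccl7 moved from 0.03, -0.09 and 0.28 to 4.02, 5.03, 4.78 and 4.72 (4.56, SE 0.23), Ccl12 by 3.51 (SE 0.34) and Ccl2 by 2.95 (SE 0.21). Going the other way were Ccl3, an inflammatory chemokine, which fell by 2.79 (SE 0.44), Pf4, a platelet-type chemokine, which fell by 2.18, and Cxcl16, a membrane-bound chemokine, which fell by 1.22. Among 19 monocyte and inflammatory chemokines 7 rose and 5 fell.

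Among genes well above background on all 7 arrays, the largest rises after Ccl24 were in genes of varied roles. Ddx4, an RNA helicase known from germ cells, was at -4.01, -5.35 and -5.07 and 3.39, 3.43, 3.68 and 3.72, higher by 8.37 (SE 0.29). Rnase2a, Ear10 and Ear1 are ribonucleases of the eosinophil-associated family, and rose by 7.18 (SE 0.23), 6.98 (SE 0.17) and 6.68 (SE 0.25). Rnase2a read 7.48, 7.18, 7.37 and 7.20 with IL-4c against 0.89, -0.19 and -0.31 without. The family's sequences are close enough that its probes may not be separable. Of the other eosinophil markers, Epx and Prg2, the granule proteins, differed by 1.25 (adjusted p = 0.241) and -0.65 (adjusted p = 0.317), and Ccr3 by 0.24 (adjusted p = 0.413). Gata1 fell by 1.24, and Siglecf was also called as falling. Epx passed when only the 7 elicited arrays were fitted (1.25, adjusted p = 0.0157) and on the 6 of slide 2 alone (1.03, adjusted p = 0.0172), and Ccr3 passed without Thio 3 (0.54, adjusted p = 0.0414). The part of eosinophils in the rise of these ribonucleases was not tested.

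Cdh1 (E-cadherin), an adhesion protein through which macrophages can fuse, rose by 7.06 (SE 0.27), from -4.02, -4.70 and -3.92 to 2.37, 3.18, 2.86 and 2.99. Il4i1, a secreted enzyme that oxidises aromatic amino acids, rose from -1.78, -2.62 and -2.18 to 3.99, 4.94, 4.58 and 3.83 (6.53, SE 0.31). Asns, asparagine synthetase, rose by 6.25 (SE 0.26) and the vitamin D receptor Vdr by 6.16 (SE 0.32). Vdr was at -3.69, -3.90 and -3.80 on the Thio arrays and at 2.05, 2.68, 2.33 and 2.39 on the others. Pi16, a peptidase inhibitor, rose by 5.92 (SE 0.28). In each of these genes the 2 groups of arrays did not overlap, which was a condition for naming them.

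**Figure D2:**
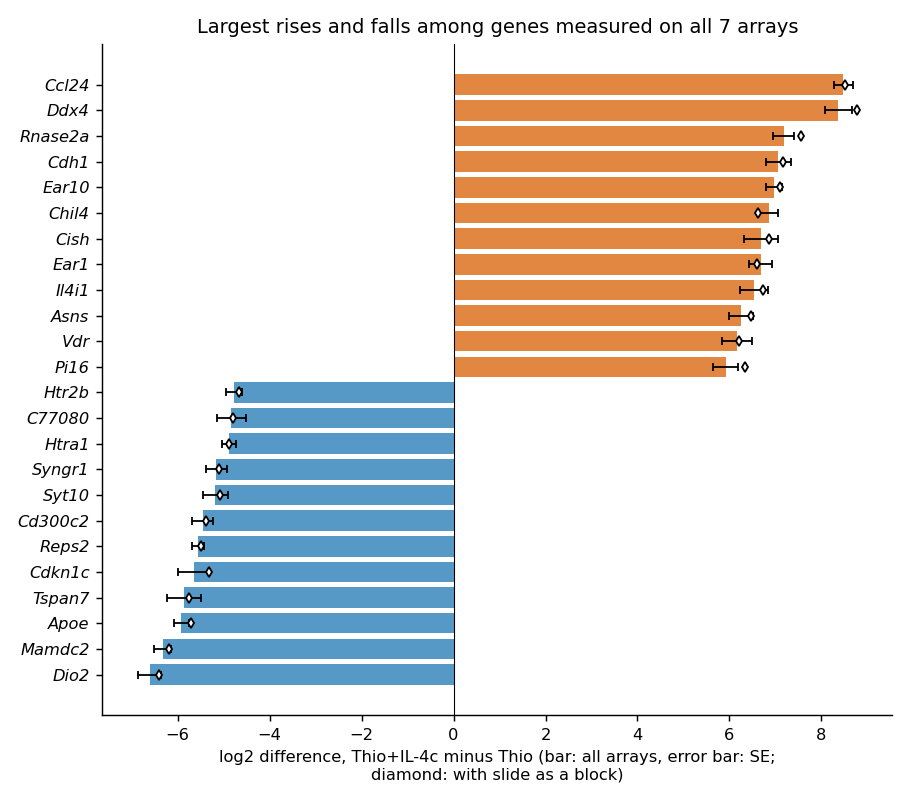
The 12 largest rises and 12 largest falls among called genes well above background on all 7 arrays, as log2 difference with its SE; diamonds give the difference with slide as a block. Every diamond lies on the same side of 0 as its bar. The bars run from 8.47 for Ccl24 to -6.61 for Dio2.

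Several genes went from background to a clear signal. The largest such rise was that of Aqp9, a channel for water and glycerol, which was not well above background on any Thio array and read -1.75, -1.66, -1.98 and -2.29 with IL-4c, at least 29.2-fold higher. Gja1 (connexin 43), a gap junction protein, was at least 12.1-fold higher. The histone gene H2ac21, Myot, an actin-binding muscle protein, and Cip2a, an inhibitor of the phosphatase PP2A, were at least 6.38-fold, 6.11-fold and 5.63-fold higher. The fold of such dim genes depends on how the background is handled: for Aqp9 the log2 difference was 6.18 as used here, 3.34 with normexp correction and 2.52 in the authors' deposited table. All 5 genes passed in each of these.

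Genes of antigen presentation rose together. Of 14 measured MHC class II presentation genes, 10 rose and 0 fell, with a median difference of 1.72. H2-Aa, the alpha chain of the class II molecule I-A, was at 3.18, 2.73 and 2.49 and 5.75, 5.33, 5.75 and 5.17, without overlap (2.70, SE 0.26, adjusted p = 7.5e-06). H2-DMb1 and H2-DMb2 encode beta chains of the DM molecule that loads peptide on class II. They rose by 2.51 (SE 0.20) and 4.06 (SE 0.47), the latter from a dim -5.03, -3.58 and -3.70.

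Dendritic cells carry much class II, and of 11 measured dendritic cell markers 3 rose and 2 fell (5 and 1 with the slide block). The mean level of that list was -0.61 to -0.49 on the Thio arrays and 0.05 to 0.34 on the Thio+IL-4c arrays. Cd209a rose by 2.62, the transcription factor Batf3 by 2.71 and the peptidase Dpp4 by 1.98, while Flt3 and Zbtb46, which define dendritic cells, differed by 1.26 (adjusted p = 0.148) and 1.39 (adjusted p = 0.194). The chemokine receptor Xcr1 fell by 1.51 and Bst2, a marker of plasmacytoid cells, by 0.63, the former without a call in the authors' deposited table (-0.01). Bst2 did not pass with slide as a block (-0.46, adjusted p = 0.134), nor without Thio+IL-4c 1, 2 or 4 (-0.64 to -0.55). Zbtb46 passed on the 6 arrays of slide 2 alone (0.53, adjusted p = 0.00906) and by the mean of its probes (2.23, adjusted p = 0.000223). Their part in the class II result was not tested.

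Ligands that steer T cells split. Pdcd1lg2 (PD-L2), an inhibitory ligand of PD-1, was at -1.11, -0.84 and -0.85 and 2.65, 2.48, 2.55 and 1.84, a rise of 3.31 (SE 0.20, adjusted p = 2.14e-07). Cd274 (PD-L1), the other ligand of PD-1, fell by 0.99 (SE 0.22, adjusted p = 0.00375), from 2.25, 2.27 and 1.97 to 0.91, 1.28, 1.29 and 1.20. Icosl, the ligand of ICOS, rose by 1.67 (SE 0.27), and Vsir (VISTA) and Cd83 fell by 1.72 (SE 0.13) and 2.27 (SE 0.26). In all, 5 of 14 measured ligands rose and 5 fell.

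Cell cycle genes rose as a group. Of 39 measured members 33 rose and 1 fell, with a median difference of 1.82 (1.81 with slide as a block). Mki67, a protein of dividing cells, was at 0.10, -0.23 and -0.83 and 2.90, 2.63, 2.66 and 2.85. The groups were apart by 3.08 (SE 0.24, adjusted p = 1.11e-06). Ccnd2, the cyclin D2 of the G1 phase, rose by 3.69 (SE 0.42), Rrm2, a subunit of the enzyme that makes deoxynucleotides, by 3.46 (SE 0.36), and Birc5 (survivin), needed for chromosome segregation, by 3.15 (SE 0.26; 1.71 to 3.56 on its other probes). The member that fell was Cdkn1b (p27), an inhibitor of cyclin-dependent kinases (-0.77, SE 0.17). Its relative Cdkn1c (p57) was among the largest falls of all genes: 3.88, 3.67 and 2.14 without and -2.55, -2.13, -2.28 and -2.67 with the complex, lower by 5.64 (SE 0.35).

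The secretory pathway and arginine use moved as follows. Of 26 genes of protein folding and export in the endoplasmic reticulum, 20 rose and 2 fell (median 0.84). Creld2, a folding helper, went from 2.80, 2.82 and 2.69 to 5.19, 5.16, 4.99 and 4.76 (2.26, SE 0.17), and Herpud1, which serves degradation at the endoplasmic reticulum, rose by 1.74 (SE 0.12). The members that fell were the stress sensor Atf6 (-1.30) and Edem1 (-0.63), which takes misfolded proteins to degradation.

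The arginine transporter Slc7a2 rose beside Arg1, from -2.41, -3.09 and -2.75 to 2.19, 2.26, 2.14 and 2.44 (5.01, SE 0.16), as did Gatm, which uses arginine to make the creatine precursor (3.39, SE 0.28). Paox, which breaks down acetylated polyamines, fell by 1.51 (SE 0.11). Of 22 genes of arginine and polyamine metabolism 10 rose and 7 fell.

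Oxidative phosphorylation genes rose in 17 of 30 cases and fell in 2, with a median of 0.33 (21 and 2 with the slide block); Uqcrc1 and Uqcrq, of respiratory complex III, rose by 0.96 (SE 0.17) and 0.99 (SE 0.14). In glycolysis 10 of 21 rose and 4 fell (13 and 4 with the slide block), and isoforms of the same step diverged. Hexokinase 2 (Hk2) rose by 1.88 (SE 0.19), from 0.93, 0.77 and 0.53 to 2.20, 2.58, 2.63 and 3.09, and hexokinase 3 (Hk3) fell by 1.59 (SE 0.17), from 4.56, 4.34 and 4.23 to 2.94, 2.80, 3.06 and 2.34. Eno2, an enolase, fell by 2.34 (SE 0.33).

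Fatty acid oxidation genes fell more often than they rose, 16 against 2 of 33 (median -0.58; 16 against 4 with the slide block). The fatty acid carrier Fabp4 fell by 2.36 (SE 0.21), the triglyceride lipase Pnpla2 by 1.96 (SE 0.11) and the lysosomal lipase Lipa by 1.87 (SE 0.25). Ppargc1b (PGC-1β), a coactivator of mitochondrial genes, rose, from -3.22, -3.03 and -3.28 to -0.42, -0.55, -0.45 and -1.26 (2.50, SE 0.18, adjusted p = 7.28e-07), as did Etfa, an electron carrier of the pathway (0.63, SE 0.15).

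**Figure D3:**
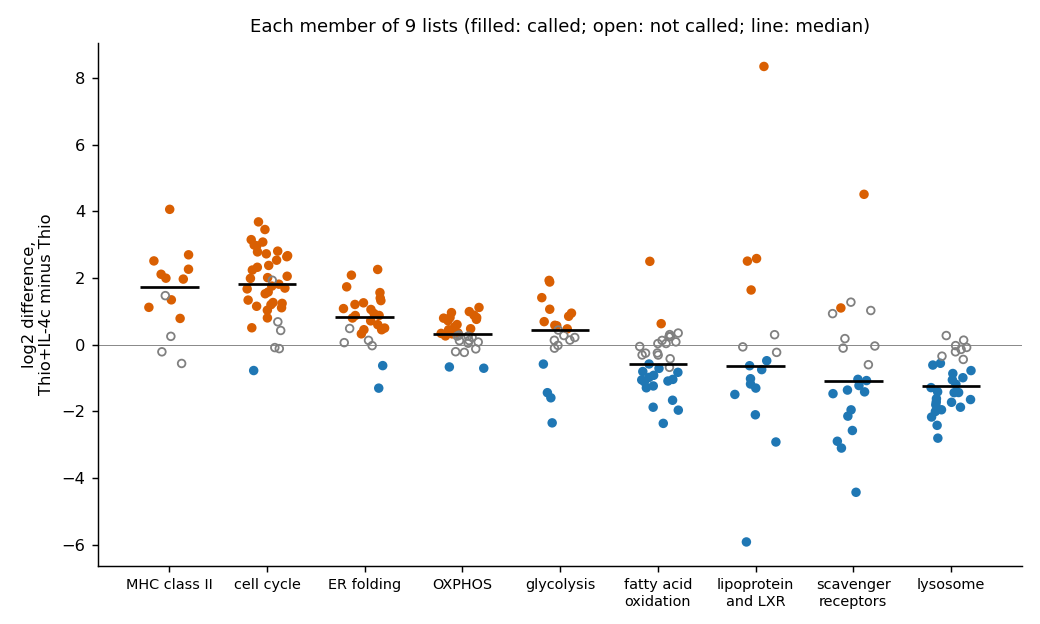
Log2 difference of every measured member of 9 gene lists, filled where called, with the list median as a line. The medians run from 1.82 for cell cycle genes to -1.24 for lysosome genes; the single high point in the lipoprotein list is Ch25h at 8.35.

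Most genes of the lysosome and scavenger receptor lists fell. Of 30 lysosome genes 22 fell and 0 rose, with a median difference of -1.24 (22 and 2 with slide as a block). Tfeb, the transcription factor of lysosome genes, was at 0.78, 0.42 and 0.38 and -1.84, -1.66, -1.74 and -2.33, lower by 2.42 (SE 0.16, adjusted p = 4.11e-07). Ctsk (cathepsin K) fell by 2.17 (SE 0.33). Gpnmb, a glycoprotein of lysosome-rich macrophages, had no value on Thio 1, read 7.20 and 7.18 on Thio 2 and Thio 3 and 4.76, 4.50, 4.49 and 3.79 with IL-4c, and fell by 2.80 (SE 0.72).

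Apoe, the apolipoprotein that carries cholesterol out of macrophages, showed the widest fall of the lipoprotein genes, from 7.63, 7.01 and 7.05 to 1.18, 1.40, 1.31 and 1.37. That is 5.92 lower (SE 0.16, adjusted p = 7.15e-10), or 60.4-fold. Nr1h3 (LXRα), a sterol-sensing receptor that controls Apoe and Abca1, fell from 3.87, 3.62 and 3.70 to 0.98, 0.72, 0.81 and 0.73 (-2.92, SE 0.10), and Abca1, the cholesterol exporter, fell by 2.10 (SE 0.32). Ch25h, which makes 25-hydroxycholesterol, went the other way, from -5.52, -7.74 and -6.58 to 1.88, 1.55, 1.80 and 1.71 (8.35, SE 0.45); it was well above background on 1 of the 3 Thio arrays, so the size rests on values near the floor. Scd2, a fatty acid desaturase, and Pltp, the phospholipid transfer protein, rose by 2.59 (SE 0.32) and 2.51 (SE 0.25). The list as a whole had 4 rises and 10 falls among 17 genes. Of 25 cholesterol synthesis genes 2 rose and 7 fell (4 and 8 with the slide block); Sc5d and Tm7sf2, late enzymes of the pathway, fell by 1.48 (SE 0.12) and 1.63 (SE 0.10).

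Receptors for modified lipoproteins and dying cells fell in 12 of 21 cases and rose in 2. Cd5l (AIM), a secreted protein of tissue macrophages, fell from 5.21, 4.57 and 5.02 to 2.35, 1.58, 1.93 and 1.48 (-3.10, SE 0.21), and the scavenger receptor Stab2 by 2.90 (SE 0.21). Colec12, a collectin scavenger receptor, fell by 4.43 (SE 0.19), a size that was -2.58 in the authors' deposited table. Olr1 (LOX-1), the oxidised LDL receptor, rose from -4.32, -3.58 and -2.92 to -0.05, 0.81, 0.39 and 2.47 (4.51, SE 0.50). Of 6 Fc gamma receptor genes, 4 fell and 1 rose. The activating receptors Fcgr1 and Fcgr4 fell by 2.92 (SE 0.39) and 2.51 (SE 0.29), and the inhibitory receptor Fcgr2b rose by 1.12 (SE 0.12, adjusted p = 1.2e-05), from 3.42, 3.10 and 3.21 to 4.40, 4.32, 4.56 and 4.19.

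The rest of the largest falls were in genes of varied roles. Dio2, the deiodinase that makes active thyroid hormone, was at 2.91, 2.68 and 1.95 and -3.53, -4.06, -4.63 and -4.15, lower by 6.61 (SE 0.25, adjusted p = 6.49e-09), or 97.4-fold. Mamdc2, a secreted protein with MAM domains, fell from 4.05, 3.72 and 3.54 to -2.68, -2.26, -2.88 and -2.38 (-6.32, SE 0.18). The tetraspanin Tspan7 fell by 5.86 (SE 0.37), Reps2, an endocytosis adaptor, fell by 5.56 (SE 0.14), and Cd300c2, a receptor of the CD300 family, by 5.45 (SE 0.23). The vesicle proteins Syt10 and Syngr1 fell by 5.19 (SE 0.27) and 5.16 (SE 0.22), the latter by 1.62 on its other probe. Htra1, a secreted serine protease, was at 2.91, 3.03 and 2.77 and -1.74, -1.99, -1.77 and -2.41 (-4.88, SE 0.15), and the serotonin receptor Htr2b fell by 4.78 (SE 0.17). C77080 fell by 4.84 (SE 0.31).

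Other genes went from a signal into the background. Wt1, a transcription factor of mesothelial and stromal cells, was well above background on all 3 Thio arrays and on no Thio+IL-4c array, at least 15.4-fold lower. Its log2 difference was -4.38 here and -1.20 in the authors' deposited table. Zfp248, a zinc finger gene, Tenm3, a teneurin, Endou, an endoribonuclease, Slco1a5, an organic anion transporter, and Agtr1b, an angiotensin receptor, had no Thio+IL-4c array above background and 3 (Zfp248) or 2 (the other 4) of the Thio arrays above it. They were at least 4.52-fold, 4.22-fold, 4.1-fold, 3.63-fold and 2.98-fold lower, but none of these 5 passed in the authors' deposited table, where their differences were -0.24, -0.19, -0.12, -0.05 and 0.02.

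Enzymes of lipid mediators showed wide changes both ways. Hpgds, which makes prostaglandin D2 in haematopoietic cells, was at 2.02, 1.01 and 1.17 and -5.69, -8.52, -8.68 and -7.11 (-8.90, SE 0.64, adjusted p = 6.72e-07). It was well above background on 1 of the 4 Thio+IL-4c arrays and its difference in the authors' deposited table was -5.43. Alox15, a lipoxygenase that marks both resident macrophages and IL-4 treatment, rose from -5.21, -1.45 and -2.05 to 1.99, 1.88, 1.64 and 1.68 (4.70, SE 0.65), or by 3.54 with slide as a block. Ptgs1 (cyclooxygenase 1) rose from 0.95, 0.76 and 0.92 to 4.18, 4.03, 4.16 and 4.45 (3.33, SE 0.11), and the phospholipase Pla2g15 fell by 2.47 (SE 0.25). Of 20 eicosanoid enzymes 6 rose and 10 fell (7 and 8 with the slide block).

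Among transcription factors of macrophage activation 11 of 29 rose and 8 fell. Irf4, which acts downstream of IL-4, was at -1.28, -1.14 and -1.14 and 1.74, 1.92, 1.69 and 1.52, higher by 2.91 (SE 0.12, adjusted p = 1.2e-08). Irf8, its relative in monocyte development, fell from 4.64, 4.15 and 3.97 to 1.30, 1.07, 1.16 and 1.29 (-3.05, SE 0.21, adjusted p = 5.31e-07). Klf4, known as a STAT6 target, rose by 2.77 (SE 0.19), and Bhlhe41 fell by 1.82 (SE 0.18). Of 23 retinoid genes 6 rose and 4 fell (8 and 5 with the slide block). Aldh1a2, the enzyme that makes retinoic acid, rose from -0.15, -0.22 and -0.03 to 4.35, 4.25, 4.39 and 4.17 (4.42, SE 0.11), the plasma retinol carrier Rbp4 by 3.82 (SE 0.66) and the retinoic acid receptor Rarb by 1.93 (SE 0.16), while Dhrs3, a retinal reductase, fell by 0.73 (SE 0.14).

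Matrix and repair genes fell more than they rose, 16 against 7 of 36. Timp1, an inhibitor of matrix proteases, rose from -0.85, -1.38 and -0.43 to 3.80, 4.69, 4.67 and 5.51 (5.55, SE 0.41), Hbegf, an epidermal growth factor ligand, by 3.14 (SE 0.21) and Tgfbi by 2.45 (SE 0.24). Spp1 (osteopontin) fell from 5.70, 4.97 and 5.57 to 0.10, 1.70, 0.99 and 2.26 (-4.15, SE 0.40), and Tgfbr2, a TGF-β receptor, by 3.60 (SE 0.11), or by 1.88 on its other probe. Fusion and osteoclast-type genes fell in 12 of 24 cases and rose in 4, among them Dcstamp, which fusion needs (2.64, SE 0.44), and the tetraspanin Cd81 (4.03, SE 0.16). Trem2, a lipid receptor of the same list, read 6.93, 6.55 and 6.57 without the complex and 4.39, 4.53 and 4.46 on the 3 Thio+IL-4c arrays with a value (-2.23, SE 0.21).

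Genes of host defence did not move as 1 group. Il6, the cytokine, rose from -4.44, -4.26 and -4.34 to -0.09, -0.28, -0.50 and 0.10 (4.16, SE 0.26). Saa3, an acute phase protein, fell from 3.96, 3.76 and 4.13 to -1.10, -0.99, -0.75 and -0.25 (-4.72, SE 0.24), and Tlr2 fell by 2.04 (SE 0.35). Of 25 inflammatory cytokines and effectors 6 rose and 6 fell. Type I interferon response genes fell in 8 of 23 cases and rose in 2; Rsad2 (viperin) fell by 2.31 (SE 0.42) and Oasl2 by 1.89 (SE 0.38). Of 20 complement genes 3 rose and 8 fell: C3, the central component, rose from 1.87, 1.63 and 2.06 to 4.98, 5.26, 5.35 and 5.14 (3.33, SE 0.13), and the complement receptor Vsig4 fell by 3.58 (SE 0.31).

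Remaining lists divided as well. C-type lectins rose in 7 and fell in 6 of 21 (9 and 4 with the slide block), with Clec4b1 higher by 2.92 (SE 0.27) and Clec4d (MCL), a receptor for mycobacterial glycolipid, lower by 4.54 (SE 0.35). TREM and MS4A genes rose in 4 and fell in 5 of 15, with Ms4a7 falling from 4.40, 4.24 and 4.10 to -0.21, -0.16, -0.27 and -0.55 (-4.55, SE 0.36). Among extracellular nucleotide and adenosine genes 7 rose and 9 fell of 19; Entpd1 (CD39), which breaks down ATP outside the cell, fell by 3.24 (SE 0.34). Iron and haem genes fell in 8 of 20 cases and rose in 1: Hfe, a regulator of iron uptake, rose by 2.66 (SE 0.15) and the haem carrier Hpx fell by 2.15 (SE 0.15).

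**Figure D4:**
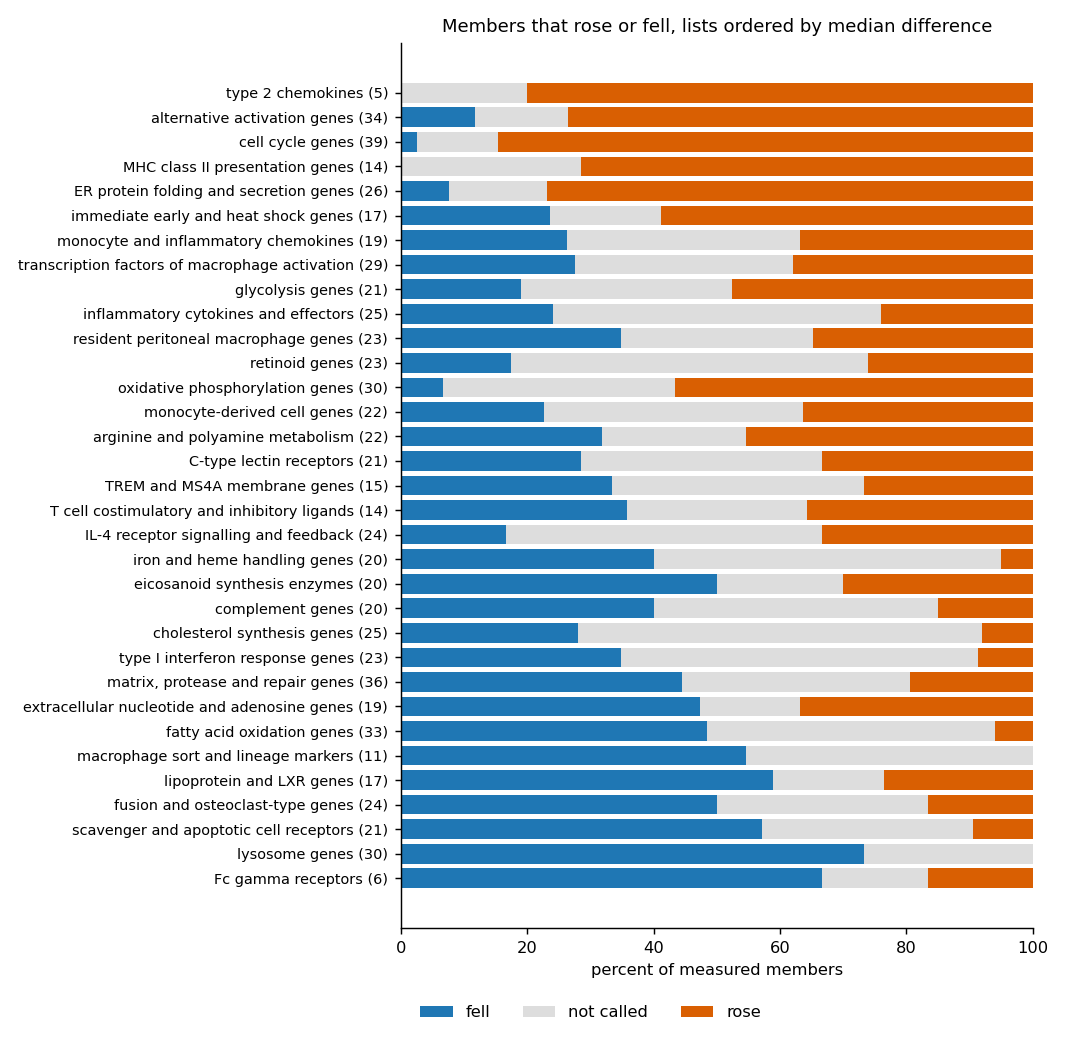
Percent of the measured members (number in brackets) of each gene list that fell, were not called or rose. Marker lists of other cell types are left out, and lists are ordered by median difference. Over all 20343 genes 16.2% rose and 23.1% fell; 33 of 39 cell cycle genes rose and 22 of 30 lysosome genes fell.

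Markers of identity were checked against the sort. Itgam (CD11b) was at 4.32, 4.05 and 4.05 and 4.32, 4.26, 4.10 and 4.25, overlapping, with a difference of 0.09 (SE 0.11, adjusted p = 0.486). Its other probes differed by 0.48 and 0.73, and the mean of its probes passed (0.43, adjusted p = 0.047). Adgre1 (F4/80) was bright in both groups but fell from 4.77, 4.68 and 4.75 to 3.70, 3.53, 3.44 and 3.46 (-1.20, SE 0.09, adjusted p = 1.08e-06). Of 11 measured sort and lineage markers, 6 fell and 0 rose. They include Mpeg1 (perforin-2), which fell from 7.03, 6.49 and 6.60 to 2.78, 3.16, 3.01 and 2.27, the lysozyme gene Lyz2 (-2.05, SE 0.23) and Fcgr1, while Csf1r, the growth factor receptor of macrophages, differed by -0.12 (adjusted p = 0.482), with a call in opposite directions under quantile normalization (-0.38) and by the mean of its probes (0.55).

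Genes of monocyte-derived cells rose in 8 of 22 cases and fell in 5; the list also holds Retnla and Chil3. Ccr2, the receptor that brings monocytes out of the marrow, was at 1.62, 1.04 and 1.25 and 3.78, 4.15, 4.16 and 3.91 (2.70, SE 0.26, adjusted p = 6.28e-06), and Ly6c1 rose by 3.42 (SE 0.31). The clotting factor gene F13a1 fell by 1.61 (SE 0.27; 0.85 on its other probe). Cx3cr1 was at 0.58, -0.23 and -0.29 and -0.11, -0.14, -0.04 and 0.00, overlapping, with a difference of -0.09 (SE 0.19, adjusted p = 0.705).

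Of 23 genes of resident peritoneal macrophages 8 rose and 8 fell. Gata6, the transcription factor of these cells, was at -2.04, -3.50 and -2.90 and -3.12, -1.97, -1.65 and -1.74, a difference of 0.70 (SE 0.37, adjusted p = 0.154) that passed with slide as a block (1.08, adjusted p = 0.0285) but not when only the 6 arrays of slide 2 were fitted (adjusted p = 0.113). Timd4 (TIM-4), a receptor for dying cells, was at -2.98, -1.12 and -1.02 and -0.68, -0.67, -0.56 and -0.51; its difference of 1.10 (adjusted p = 0.0406) was 0.47 (adjusted p = 0.068) with slide as a block, and it did not pass without any one of the Thio+IL-4c arrays (1.07 to 1.13). On the 6 arrays of slide 2 alone it did (adjusted p = 0.014). Cd93 fell from 6.35, 5.85 and 5.89 to 2.12, 1.90, 2.04 and 1.61 (-4.11, SE 0.17).

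Markers of other cells that the sort could let through were counted in the same way, and their part in the results above was not tested. B cell markers fell in 5 of 12 cases and rose in 1, with a list mean of -2.23 to -1.65 on the Thio and -2.53 to -2.33 on the Thio+IL-4c arrays; Cd22, a lectin of B cells, fell by 2.82 (SE 0.10). T and NK cell markers rose in 2 and fell in 2 of 15, or 4 and 3 with the slide block, which took the median difference from 0.67 to -0.02; the list means were -2.14 to -1.48 and -1.45 to -1.15. For neutrophils 3 of 12 rose and 1 fell (-1.20 to -0.90 and -0.87 to -0.44): Retnlg, a relative of Retnla, rose by 4.51 (SE 0.84), the collagenase Mmp8 fell by 3.19 (SE 0.51), and the granule genes Mpo and Ltf differed by 0.09 (adjusted p = 0.935) and 0.01 (adjusted p = 0.992). Eosinophil markers rose in 2 and fell in 2 of 9 (-2.82 to -2.62 and -1.75 to -1.58). Ear1 and Alox15 were the ones that rose, and Gata1 and Siglecf the ones that fell. The median difference of the list was -0.39 (0.20 with the slide block). Alox15 is also on the list of resident macrophage genes.

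Mast cell and basophil markers fell in 3 of 10 cases and rose in 0 (-3.15 to -2.44 and -3.84 to -3.11); the basophil protease Mcpt8 fell by 1.65 (SE 0.17). Mesothelial and stromal markers fell in 4 of 12 and rose in 0 (-2.91 to -2.21 and -3.49 to -3.11), with the collagen gene Col1a2 lower by 1.66 (SE 0.24) beside Wt1. Erythroid and platelet markers rose in 1 and fell in 1 of 9 (0 and 1 with the slide block). Immediate early and heat shock genes were listed as a check on handling, whose part was not tested. Of 17 measured, 10 rose and 4 fell (10 and 1 with slide as a block). The chaperone Hspa1a rose from -2.53, -2.02 and -2.03 to 1.66, 1.32, 0.84 and 1.94 (3.63, SE 0.50) and the stress factor Atf3 fell by 1.56 (SE 0.19).

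The response of elicited cells was set beside that of resident cells given the same complex (IL-4c minus PBS), and the difference between the responses was tested as an interaction in the same fit. The 2 contrasts share no arrays. In resident cells 6546 genes passed (32.2%), 3431 upwards (16.9%) and 3115 downwards (15.3%). The interaction passed for 6642 of 20343 genes (32.7%, and 8157 genes with slide as a block). It passed for 35 of the 43 genes that were index genes or among the 24 largest changes. With slide as a block 3 more of the 43 passed and 0 were lost. The 24 largest changes were picked for their size in elicited cells, so their interaction is not independent of that choice.

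For some genes the interaction did not pass. The Arg1 responses were 3.65 in elicited and 4.06 in resident cells, with an interaction of -0.41 (SE 0.28, adjusted p = 0.295; -0.93, adjusted p = 0.0146, in the authors' deposited table). For Mki67 they were 3.08 and 3.54 (-0.46, SE 0.33, adjusted p = 0.315; -0.98, adjusted p = 0.0205, in that table). Ddx4, from the largest rises, had 8.37 and 8.13 (0.24, SE 0.41, adjusted p = 0.678). A p above the threshold does not show that these responses were equal.

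Other genes rose more in elicited cells. Retnla rose by 0.55 in resident cells, from 6.83, 7.02 and 6.86 to 7.47, 7.32, 7.46 and 7.59, and by 3.47 more in elicited cells (SE 0.15, adjusted p = 7.76e-08). For Aldh1a2, Pdcd1lg2 and Irf4 the resident differences were 0.69, 0.47 (adjusted p = 0.108) and 0.08 (adjusted p = 0.696), and the interactions 3.73 (SE 0.16), 2.85 (SE 0.29) and 2.82 (SE 0.17). The chitinase-like genes were the opposite: Chil3 and Chil4 rose by 6.03 and 9.73 in resident cells, and their interactions were -2.86 (SE 0.25) and -2.88 (SE 0.30). An interaction also depends on the level without IL-4c. Chil3 averaged 1.22 on the PBS and 4.22 on the Thio arrays. With IL-4c it averaged 7.25 in resident and 7.38 in elicited cells. In the same order Chil4 averaged -3.79, -1.35, 5.94 and 5.50, and Irf4 1.43, -1.19, 1.51 and 1.72. With IL-4c, Aldh1a2 averaged 2.46 in resident and 4.29 in elicited cells, and Pdcd1lg2 -1.81 and 2.38. All resident arrays lay on the slide of Thio 1, and all Thio+IL-4c arrays on slide 2. In levels set side by side with IL-4c, kind of cell and slide therefore cannot be told apart.

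Of the 43 genes, 5 passed in both kinds of cell with opposite signs. Ccl24 read 4.69, 4.85 and 4.50 on the PBS arrays and 2.39, 2.70, 2.87 and 2.72 with IL-4c in resident cells, a difference of -2.01. Set beside the rise in elicited cells this gave an interaction of 10.49 (SE 0.29, adjusted p = 2.79e-09). Ccr2 had -3.66 in resident and 2.70 in elicited cells (6.35, SE 0.36), Mrc1 -0.96 and 1.54 (2.50, SE 0.23), and Timd4 -1.53 and 1.10 (2.63, SE 0.55), the last with the dependence on Thio 1 given above. Syt10 rose from -2.45, -1.98 and -1.53 to 3.81, 3.29, 4.04 and 3.94 in resident cells (5.76) and fell by 5.19 in elicited cells (-10.94, SE 0.38). Ucp1, the uncoupling protein of brown fat, rose by 6.00 in resident cells, while in elicited cells it was at -3.12, -4.90 and -3.75 and -5.61, -4.62, -3.42 and -4.75, overlapping, with a difference of -0.68 (SE 0.50, adjusted p = 0.29).

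**Figure D5:**
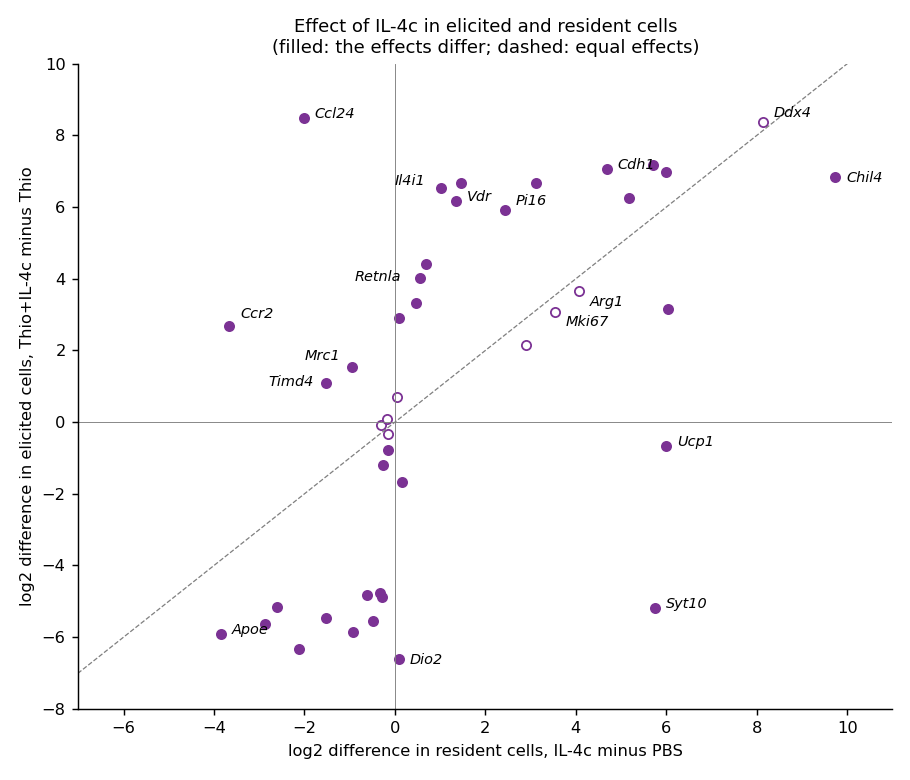
Log2 difference with IL-4c in elicited cells (vertical) against resident cells (horizontal) for 43 genes, the index genes and the 24 largest changes in elicited cells; filled points passed the interaction test and the dashed line marks equal effects. Arg1, Mki67 and Ddx4 lie near the line, and Ccl24 (upper left) and Syt10 (lower right) lie on opposite sides of 0 in the 2 kinds of cell.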

How the data were processed

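Sorted peritoneal macrophages were profiled on 1-colour Agilent arrays of 62976 spots, of which 3671 were controls. Per the file headers, Feature Extraction 11.0.1.1 gave a background-subtracted processed intensity per spot; the submitters' processing notes name Feature Extraction 11.5 and limma. The authors' deposited value table holds log2 values and was used as an alternative; no source used here gives its normalization.

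Control spots and spots marked as outliers were left out, spots of 1 probe were averaged, and log2 intensity minus the array's 75th percentile was taken. A probe was kept if well above background on at least 3 arrays. Of 55681 probes, 27235 were named through accessions in the RefSeq GRCm38.p6 gene table and 28446 were not. The brightest probe stood for a gene (20343 genes). Probe sequences were not used here, so the promoters of RefSeq are the sequences shown.

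One mean per group was fitted to all 14 arrays with limma 3.58.1 (R 4.3.3), with two-sided moderated tests and Benjamini-Hochberg adjustment over all genes. A gene called has an adjusted p below 0.05. A missing value drops that array for that gene (92 genes, 19 of them on Thio 1). For a gene not above background on any array of a group, "at least" folds compare the bright group's mean with, per array, the higher of the lowest well-above-background signal and the gene's own signal. Normexp (offset 50) used the median signal in place of the mean signal named in the plan. Scripts were tested on simulated data. The number of arrays limits the precision.

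Named genes were the 12 largest rises and 12 largest falls above background on all 7 arrays, the 6 largest rises from and falls to background, up to 3 called members per list with the largest rise and fall, and 21 index genes; members that rose or fell outside this rule, and defining markers that were not called, are named where a count turns on them. Not all genes of the rule are described, and that selection was made after values were seen. The comparison, the members and the lists were chosen with earlier results of these data known.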

Additional observations from a re-analysis of the deposited data

Results flagged for a closer look

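Among the 4 Thio+IL-4c arrays, 1 array lay far from the other 3 for 7 of the 170 genes reported, where chance alone gives about 1 in 20. On array 4 the level of Atp6v0d2 was 2.55 against 3.50 to 3.62 on the others. Batf3 was at 3.92 on array 4 against 4.45 to 4.54, Hfe at 3.83 against 4.32 to 4.41 and Ppargc1b at -1.26 against -0.55 to -0.42. On array 1 Pi16 was at 2.73 against 2.08 to 2.17, and Zbtb46 at 0.11 against 0.27 to 0.29. On array 3 Mpo was at -4.15 against -2.24 to -2.06.

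The response to IL-4c differed between elicited and resident cells by the interaction test for 35 of 43 genes, given here as log2 response in elicited minus response in resident cells. It was positive, besides Ccl24 at 10.49, for Ccr2 (6.35), Il4i1 (5.51), Ear1 (5.21) and Vdr (4.81). Smaller positive values were those of Aldh1a2 (3.73), Cish (3.56), Pi16 (3.48), Retnla (3.47), Pdcd1lg2 (2.85), Irf4 (2.82), Timd4 (2.63), Mrc1 (2.50), Cdh1 (2.38), Rnase2a (1.47), Asns (1.09) and Ear10 (0.98). The Asns value did not pass in the authors' deposited table (0.82), with a replicate block, or without Thio 2, Thio 3 or Thio+IL-4c 1, 2 or 3 (0.91 to 1.07).

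Negative values were those of Syt10 (-10.94), Dio2 (-6.69), Ucp1 (-6.68), Reps2 (-5.08), Tspan7 (-4.93), Htra1 (-4.60), Htr2b (-4.45), C77080 (-4.23), Mamdc2 (-4.20) and Cd300c2 (-3.92). Chil4 (-2.88), Chil3 (-2.86), Cdkn1c (-2.77), Syngr1 (-2.55), Apoe (-2.07), Pparg (-1.81), Adgre1 (-0.92) and Stat6 (-0.63) followed. Some of these genes read lower in resident than in elicited cells without IL-4c. The part of this in the interactions was not tested, and the PBS arrays lay on another slide than Thio 2 and Thio 3. PBS means of Dio2, Htra1, Htr2b, C77080 and Mamdc2 were -2.96, -2.96, -2.98, -3.88 and -2.14. Their Thio means were 2.51, 2.90, 1.85, 4.43 and 3.77. Apoe and Adgre1 were higher on the PBS arrays, at 8.38 and 6.54 against 7.23 and 4.73. By the mean of the probes of a gene, Syngr1 was at -0.99 (adjusted p = 0.125).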

How the results depend on the processing

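Of 157 called genes named in the text, 148 kept direction and call under every alternative run: quantile normalization, normexp correction, the authors' deposited table, both other filters on dim probes, the mean of the probes, slide as a block, the 7 elicited arrays alone, array weights, a replicate block, each array left out, and the 6 arrays of slide 2 alone, an alternative chosen after seeing the data. Of the other 9, Socs1, Timd4 and Bst2 lost the call without Thio 1, and Xcr1, Zfp248, Tenm3, Endou, Slco1a5 and Agtr1b did so in the authors' deposited table, where the Agtr1b difference turned to 0.024. Xcr1, Tenm3 and Slco1a5 also lost the call with normexp correction (-0.32, -0.59 and -0.52). The cause of these losses was not tested. By the mean of probes the interaction of Stat6 turned to 0.20. With only the 7 elicited arrays fitted, 5367 genes were called and 2150 rose. With only the 6 of slide 2 fitted, 8390 were called and 4310 rose. The cause of this difference was not tested. Leaving out 1 array gave 6943 to 8991 called genes, 2783 to 4219 that rose, 4160 to 5495 that fell, 3563 to 5188 called at least 2-fold, and 5871 to 8154 interactions. With slide as a block 4222 of 8558 called genes rose, against 3303 of 8007 without it. Medians of 7 gene lists changed sign under at least 1 alternative: IL-4 receptor signalling, T and NK cell markers, T cell ligands, TREM and MS4A genes, eicosanoid enzymes, eosinophil markers and neutrophil markers. Promoter shares for genes changed at least 2-fold were 7.78% (rose) and 7.96% (fell) for the wide STAT form.

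Replicate numbers do not pair the samples: deviations of same-numbered arrays correlated at -0.14, 0.01 and -0.02, and with the replicate block 6975 genes were called. Signal near background limits the size of differences in dim genes, and the slide of Thio 1 and that array itself cannot be told apart.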
